A study of Mus musculus with 20 samples.

Results

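The microglia genes described here are Cx3cr1, P2ry12, Tmem119, Csf1r, C1qa, C1qb, C1qc, Aif1 and Trem2, which are 9 of the 39179 genes in the count tables. They were taken by gene symbol as widely used markers of microglia, with earlier results of these data known. RNA was sequenced from the whole bilateral striatum of 20 male mice, 5 for each combination of line (Control or High-Active) and injection (saline or amphetamine). Both lines descended from one intercross of 8 inbred strains. The High-Active line had been bred for distance traveled in the home cage up to generation 17, and the Control line was kept without that selection. At about 6.5 months of age, after both measurements of home-cage activity, each mouse received an injection of saline or of 0.25 mg/kg d-amphetamine, and the striatum was collected 2 hours later. Each regime was represented by 1 line, so selection and random drift between the lines cannot be told apart. The labels named 8 pairs of parents for the 10 Control mice and 5 pairs for the 10 High-Active mice, and 9 of the High-Active mice had a full sibling among them.

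Microglia are the resident macrophages of the brain, which survey the tissue, clear debris and take part in removing synapses. Their survival depends on the CSF1 receptor, they sense neurons and injury through receptors such as CX3CR1 and P2RY12, and they are the main source of complement C1q in the brain. C1q starts the classical complement pathway and marks synapses and debris for uptake, while TREM2 binds lipids and lipoproteins and signals through the adaptor TYROBP.

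All 9 genes were detected in every mouse and passed the filter of more than 1 CPM (a count scaled to the size of its library) in 3 mice or more. The lowest number of reads for any of them in a mouse was 133, for Aif1, and libraries held between 32388971 and 53710713 counted reads. As a check of the tissue, markers of perivascular macrophages summed to 11.3 to 21.7 CPM per mouse and those of blood leukocytes to 0.166 to 3.82 CPM, against 269 to 362 CPM for the 9 microglia genes. Striatal projection neuron markers, such as Ppp1r1b, Penk and Pde10a, were high in each library, with sums of 4297 to 7097 CPM. Cortical excitatory neuron markers were also present and varied widely, with sums of 163 to 972 CPM. Because the tissue was bulk striatum, fewer microglia and less RNA per microglial cell cannot be told apart in any of these values.

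The 3 C1q genes lie side by side on the minus strand of chromosome 4 in GRCm38: C1qb at 136880129 to 136886187, C1qc at 136889804 to 136893065 and C1qa at 136895917 to 136898803. Aif1 (35170991 to 35176068, minus strand) and Trem2 (48346401 to 48354147, plus strand) are both on chromosome 17. P2ry12 lies on chromosome 3 (59216272 to 59262871, minus strand), Tmem119 on chromosome 5 (113793729 to 113800516, minus strand) and Cx3cr1 on chromosome 9 (119901616 to 120069879, minus strand). In the RefSeq promoter table (GRCm38.p6), 6 of the 9 genes had a window around the start of transcription. Windows were searched on both strands for GAGGAA and for the longer GAGGAAG, which contains it; both are forms of the motif of PU.1, the transcription factor that defines the myeloid lineage. Of 32851 windows of 300 bases, 28.3% held GAGGAA and 13.6% held GAGGAAG. The shorter form was found in the windows of C1qb, C1qc, Aif1 and Trem2 and the longer one in those of C1qc and Trem2, while neither form was in these windows of Cx3cr1 and P2ry12.

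The sequences upstream of the start of the 3 genes with the largest line differences, and of C1qb beside C1qc, are given 5′ to 3′ on the strand of the gene, with the motif or its reverse complement in capitals. For C1qc only the bases that GENCODE puts outside an exon are printed. Starts are those of the RefSeq table, and the last bases for Aif1, with its marked match, lie inside the GENCODE bounds given above.
C1qc, chr4:136893066-136893164, minus strand: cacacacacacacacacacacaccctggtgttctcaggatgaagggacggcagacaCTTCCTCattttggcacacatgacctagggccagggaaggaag
C1qb, chr4:136886201-136886450, minus strand: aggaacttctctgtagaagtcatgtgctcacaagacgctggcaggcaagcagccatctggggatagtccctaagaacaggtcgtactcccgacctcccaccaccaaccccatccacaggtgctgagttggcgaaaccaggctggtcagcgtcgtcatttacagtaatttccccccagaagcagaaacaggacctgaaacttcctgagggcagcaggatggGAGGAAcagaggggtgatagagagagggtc
Aif1, chr17:35176053-35176302, minus strand: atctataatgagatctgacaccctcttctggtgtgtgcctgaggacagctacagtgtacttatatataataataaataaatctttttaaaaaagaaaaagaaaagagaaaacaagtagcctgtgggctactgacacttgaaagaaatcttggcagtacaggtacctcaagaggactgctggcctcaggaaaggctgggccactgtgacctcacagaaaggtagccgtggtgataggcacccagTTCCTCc
Trem2, chr17:48346151-48346400, plus strand: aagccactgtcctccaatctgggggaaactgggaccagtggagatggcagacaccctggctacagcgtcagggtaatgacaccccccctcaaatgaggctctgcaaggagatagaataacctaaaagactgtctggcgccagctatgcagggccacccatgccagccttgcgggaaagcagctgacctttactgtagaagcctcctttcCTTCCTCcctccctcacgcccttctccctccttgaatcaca
A match is a description of these letters, and binding was not measured.

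Levels were compared between genes as CPM per kilobase of exon, averaged over the 20 mice. The C1q chains were the most abundant, with C1qa at 38.01 ± 5.16 CPM per kb (SD, n = 20), C1qb at 28.2 ± 5.37 and C1qc at 23.6 ± 4.59. Csf1r, the receptor for the growth factors CSF1 and interleukin-34, followed at 20.2 ± 1.84 CPM per kb, and P2ry12, an ADP receptor that guides microglial processes, at 18.1 ± 2.24. Tmem119, a membrane protein used to mark resident microglia, stood at 10.2 ± 1.06 CPM per kb. Trem2, at 7.76 ± 1.97, and Cx3cr1, the receptor for the neuronal chemokine fractalkine, at 7.48 ± 0.860, differed by less than their SD, as did the neighbours C1qb and C1qc, C1qc and Csf1r, and Csf1r and P2ry12 by the larger SD of each pair. Aif1, which encodes the calcium- and actin-binding protein Iba1, was the lowest at 4.86 ± 1.07 CPM per kb. Exon length here is that of the basic GENCODE transcripts, and the order changed over the exons of all annotated transcripts. There C1qc (14.7 CPM per kb) stood below P2ry12 (17.4) and Csf1r (17.1), and Trem2 (1.79) below Aif1 (3.20).

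**Figure D1:**
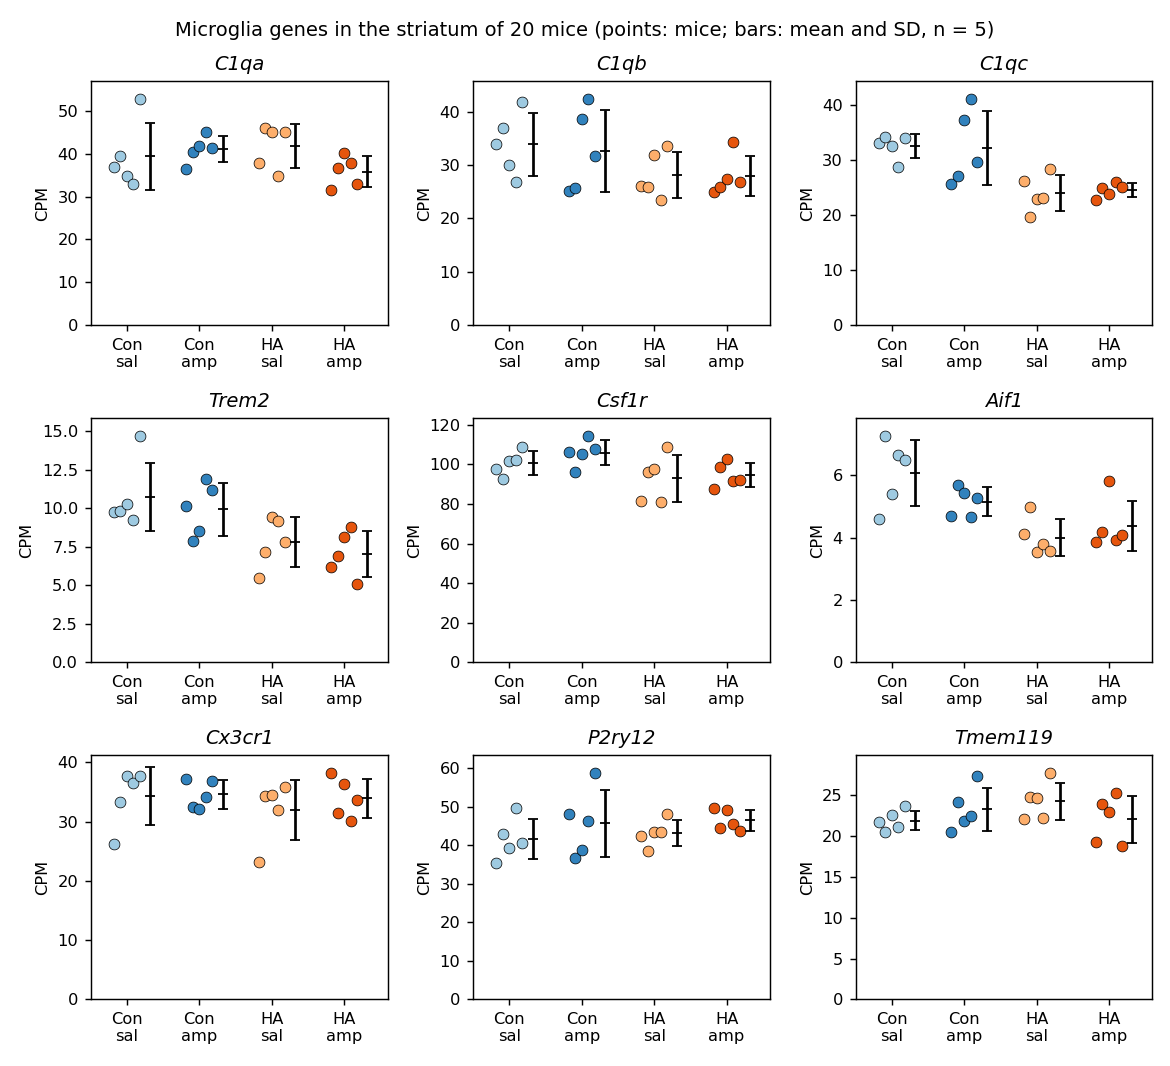
Expression of the 9 microglia genes in CPM for each mouse (points), with the mean and SD of each group (n = 5), for Control (Con, blue) and High-Active (HA, orange) mice given saline (sal, light) or amphetamine (amp, dark). High-Active mice were lower for C1qc, Aif1 and Trem2, while Cx3cr1, P2ry12, Tmem119 and C1qa overlapped widely between the lines.

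To ask whether microglial genes differed between the lines, High-Active and Control mice were compared over both treatments. C1qc, Aif1 and Trem2 were downregulated in High-Active mice by about the same proportion, with log2 fold changes of -0.41, -0.42 and -0.48, and Csf1r was slightly downregulated (-0.14). C1qa, Cx3cr1, P2ry12 and Tmem119 had log2 fold changes between -0.07 and 0.04 and did not pass the test, nor did C1qb. Of the 9 genes, 4 were therefore lower and 0 were higher at FDR < 0.1 in edgeR's quasi-likelihood test. Among all 14792 genes tested, 14.5% were called, with 6.90% lower and 7.63% higher. The median log2 fold change was -0.14 over the 9 genes and -0.00 over all genes tested.

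Among the 3 chains of C1q, C1qc carried the largest difference. C1qc was at 28.9, 32.6, 33.2, 34.1 and 34.2 CPM in Control saline mice and at 25.6, 27.1, 29.8, 37.3 and 41.2 CPM in Control amphetamine mice. It was at 19.7, 22.9, 23.1, 26.2 and 28.4 CPM in High-Active saline mice and at 22.7, 23.9, 24.9, 25.1 and 26.04 CPM in High-Active amphetamine mice. In 7 of 10 High-Active mice C1qc was below every Control mouse, and all 10 were below the Control median. Over the tested genes, 4.62% had 6 or more High-Active mice below every Control mouse. C1qc averaged 32.4 ± 4.73 CPM (SD, n = 10) in Control and 24.3 ± 2.39 CPM in High-Active mice, and it fell by 24.98% (log2 fold change -0.41, SE 0.081, edgeR adjusted p = 0.00548). In a permutation test of the mean log2 CPM, p was 0.00016, and with full siblings averaged to 1 value per family it was 0.00466 (8 against 5 families).

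The neighbouring C1qb had the same direction but not a call. C1qb ranged from 26.7 to 41.8 CPM in Control saline, from 25.05 to 42.3 in Control amphetamine, from 23.4 to 33.6 in High-Active saline and from 24.9 to 34.3 CPM in High-Active amphetamine mice. The lines overlapped, and 2 High-Active mice had less than any Control mouse. C1qb had a log2 fold change of -0.25 (SE 0.107, edgeR adjusted p = 0.150), and the permutation test gave p = 0.0453, which was no longer under 0.05 when any of 13 of the 20 mice was left out. C1qa differed little: its means were 40.2 ± 5.69 CPM in Control and 38.82 ± 5.23 CPM in High-Active mice (SD, n = 10), with a log2 fold change of -0.06 (SE 0.079, edgeR adjusted p = 0.698).

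Among the receptors, Trem2 showed the largest proportional difference of the 9 genes. Trem2 was at 9.20, 9.75, 9.78, 10.2 and 14.7 CPM in Control saline mice and at 7.86, 8.54, 10.1, 11.2 and 11.9 CPM in Control amphetamine mice. It was at 5.47, 7.16, 7.81, 9.13 and 9.45 CPM in High-Active saline mice and at 5.07, 6.17, 6.90, 8.13 and 8.76 CPM in High-Active amphetamine mice. All 10 High-Active mice were below the Control median and 6 were below every Control mouse. Trem2 fell by 28.4% (log2 fold change -0.48, SE 0.123, edgeR adjusted p = 0.0238), from 10.3 ± 1.92 to 7.41 ± 1.52 CPM (SD, n = 10). The permutation p was 0.00088 over mice and 0.00311 over families.

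Csf1r (chromosome 18, 61100598 to 61132149, plus strand) had the most reads of the set, and its line difference was small. It ranged from 92.8 to 109 CPM in Control saline, from 96.0 to 114 in Control amphetamine, from 81.2 to 109 in High-Active saline and from 87.8 to 103 CPM in High-Active amphetamine mice. In 5 High-Active mice Csf1r was below every Control mouse, and the others overlapped with the Control line. The share of all genes with 5 or more such mice was not counted. It fell by 9.13% (log2 fold change -0.14, SE 0.051, edgeR adjusted p = 0.0993), just inside the threshold, and the call was lost when any of 15 of the 20 mice was left out. It was also lost with library totals, with either other filter on low counts and in limma-voom with a family block (adjusted p of 0.102 to 0.138). Csf1r shares 873 bases of exon with Hmgxb3 on the opposite strand, whose log2 fold change was -0.15 (edgeR adjusted p = 0.0959). The libraries were stranded, but the strand setting of the counting was not given in the sources used here. It is therefore not known whether reads of the shared bases were counted by strand or left out as ambiguous.

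Aif1, the gene of the common microglial stain Iba1, was the least abundant of the set. Aif1 was at 4.59, 5.40, 6.50, 6.65 and 7.26 CPM in Control saline mice and at 4.66, 4.69, 5.27, 5.44 and 5.70 CPM in Control amphetamine mice. It was at 3.55, 3.59, 3.78, 4.12 and 4.97 CPM in High-Active saline mice and at 3.86, 3.92, 4.10, 4.18 and 5.81 CPM in High-Active amphetamine mice. In 8 of 10 High-Active mice Aif1 was below every Control mouse, and 1 High-Active amphetamine mouse, at 5.81 CPM, lay above the Control median. Aif1 fell by 25.2% (log2 fold change -0.42, SE 0.098, edgeR adjusted p = 0.0157), from 5.62 ± 0.918 to 4.19 ± 0.696 CPM (SD, n = 10). The permutation p was 0.00092 over mice and 0.00932 over families, while edgeR on counts summed over full siblings gave an adjusted p of 0.112.

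The 3 genes used most to mark resting microglia had nearly equal levels in the lines. Cx3cr1 was at 34.4 ± 3.597 CPM in Control and 32.9 ± 4.18 CPM in High-Active mice (SD, n = 10; log2 fold change -0.07, SE 0.078, edgeR adjusted p = 0.636). P2ry12 was at 43.7 ± 7.13 and 44.9 ± 3.42 CPM (0.04, SE 0.075, adjusted p = 0.789). Tmem119 was at 22.6 ± 2.08 and 23.2 ± 2.73 CPM (0.03, SE 0.064, adjusted p = 0.773). For each of these genes the ranges of the lines overlapped almost completely, with at most 2 High-Active mice below every Control mouse.

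**Figure D2:**
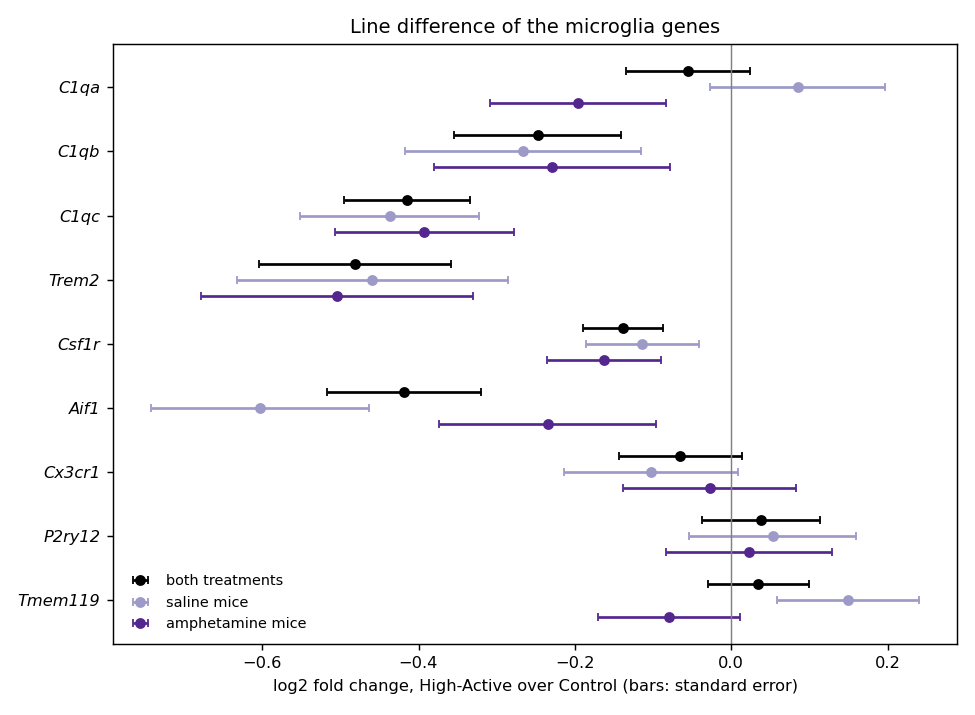
Log2 fold change of each microglia gene in High-Active over Control mice, with its standard error, over both treatments (black), in saline mice (light) and in amphetamine mice (dark). C1qc, Aif1, Trem2, Csf1r, C1qb and Cx3cr1 were below 0 in each comparison, and C1qa and Tmem119 lay on opposite sides of 0 in saline and amphetamine mice.

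Within each treatment the same genes stood lowest, with fewer calls. In saline mice Aif1 (log2 fold change -0.60, SE 0.139, edgeR adjusted p = 0.0393) and C1qc (-0.44, SE 0.114, adjusted p = 0.0603) were downregulated in the High-Active line, which made 2 of 9 genes lower and 0 higher, against 3.74% of all genes called, 1.75% lower and 1.99% higher. All 5 High-Active saline mice were below every Control saline mouse for C1qc. The exact permutation p of 0.00794 is the smallest that 5 against 5 mice allow. How many of all genes were separated in this way in saline mice was not counted. The call for C1qc in saline mice was lost when any of 6 of the 20 mice was left out. Trem2 in saline mice had a log2 fold change of -0.46 (SE 0.173, adjusted p = 0.177). In amphetamine mice 0 of 9 genes passed, 1.3% of all genes did (0.649% lower and 0.656% higher), and 3 of the 9 had an unadjusted p under 0.05, against 12.6% of all genes. There, Trem2 was at -0.50 (SE 0.174, adjusted p = 0.226), C1qc at -0.39 (SE 0.114, adjusted p = 0.149) and Aif1 at -0.23 (SE 0.139, adjusted p = 0.485).

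Amphetamine gave no detectable change in the microglia genes 2 hours after injection. Averaged over the lines, 0 of 9 genes passed in edgeR's test and 0 had an unadjusted p under 0.05, while 0% of all genes were called and 12.5% had an unadjusted p under 0.05. DESeq2 and edgeR's robust likelihood-ratio test also called 0 of the 9 genes, and over all genes they called 391 and 458. The log2 fold changes ran from -0.13 for Trem2 (SE 0.122) to 0.12 for P2ry12 (SE 0.075). P2ry12 averaged 41.7 and 45.8 CPM in saline and amphetamine mice of the Control line and 43.2 and 46.5 CPM in those of the High-Active line. Within High-Active mice C1qa was at 41.8 ± 5.19 CPM after saline and 35.9 ± 3.56 CPM after amphetamine (SD, n = 5), a log2 fold change of -0.22 (SE 0.112, edgeR adjusted p = 0.628). Full siblings given different injections were found in 4 High-Active and 2 Control families. Between them C1qa was lower after amphetamine in 4 of 4 High-Active families, by -0.30 to -0.07 on the log2 scale, and higher in 2 of 2 Control families, by 0.03 and 0.18. C1qa had the largest drug difference of the 9 genes in High-Active mice. These families hold mice of that same comparison, so their counts are no separate evidence. Levels of cortical markers also differed between these groups, as given below, and the cause of the C1qa differences was not tested. Over both lines Trem2 was lower in 5 of 6 families and Csf1r higher in 5 of 6.

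The response to amphetamine did not differ detectably between the lines for any of the 9 genes. The interaction was called for 0 of 9 genes and 0% of all genes, and 2.97% of all genes had an unadjusted p under 0.05, as did 0 of the 9. The largest interaction was that of Aif1 (0.37, SE 0.196), for which Control saline mice, at 6.08 ± 1.07 CPM, stood above the other 3 groups, which averaged 5.15, 4.00 and 4.37 CPM. C1qa (-0.28, SE 0.159) and Tmem119 (-0.23, SE 0.129) had line differences of 0.08 and 0.15 in saline mice and of -0.20 and -0.08 in amphetamine mice on the log2 scale, of which none was called. A permutation test of treatment within the lines gave p = 0.0852 for Aif1, 0.0922 for C1qa and 0.0968 for Tmem119.

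A ratio of 2 genes within a mouse leaves out any difference that both genes share. The log2 ratio of C1qa to C1qc was 0.31 ± 0.207 in Control and 0.67 ± 0.254 in High-Active mice (SD, n = 10), which is higher by 0.355 (p = 0.00216 by permutation). C1qb to C1qc differed by 0.17 (permutation p = 0.0191) and C1qa to C1qb by 0.18 (permutation p = 0.0475), so the chains stood in the order C1qc, C1qb and C1qa by how low they were in the High-Active line. The ratio of Tmem119 to Trem2 differed by 0.517 (permutation p = 0.00032) and that of P2ry12 to Trem2 by 0.535 (permutation p = 0.00072). The ratios among C1qc, Aif1 and Trem2 differed by 0.01 to 0.08 between the lines (permutation p of 0.581 to 0.931). Of the 36 pairs of the 9 genes, 20 had an unadjusted permutation p under 0.05; the pairs share genes and are not independent.

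**Figure D3:**
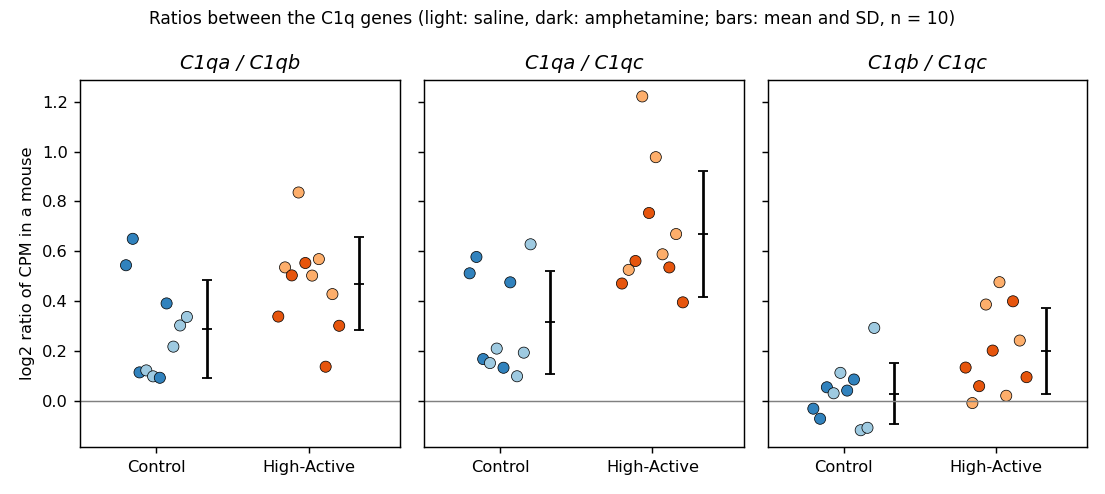
Log2 ratio of CPM between pairs of C1q genes in each mouse (points; light, saline; dark, amphetamine), with the mean and SD of each line (n = 10). The ratio of C1qa to C1qc moved from 0.31 in Control to 0.67 in High-Active mice, and 4 High-Active mice were above every Control mouse.

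Cortical excitatory neuron markers differed between the groups and are given beside these results. Their summed level was 298 to 832 CPM in Control saline, 609 to 835 in Control amphetamine, 163 to 342 in High-Active saline and 219 to 972 CPM in High-Active amphetamine mice. Of 10 such markers, 3 were lower in the High-Active line and 0 higher, with a median log2 fold change of -0.74. For these and the other cell type markers below, 6.90% of all genes tested were called lower and 7.63% higher. The cortical calls were lost without any of 14 mice for Tbr1, 8 for Slc17a7 and 3 for Neurod2. For amphetamine the median was 0.91, and 0 of the 10 were called, as were 0% of all genes. In edgeR's test 9 of the 10 had an unadjusted p under 0.05 for amphetamine, against 12.5% of all genes. The median for amphetamine was 0.46 in Control and 1.38 in High-Active mice. Slc17a7, the vesicular glutamate transporter of cortical neurons, was at 412 ± 144 CPM in Control and 261 ± 208 CPM in High-Active mice (SD, n = 10). With a cortical marker score as covariate, Aif1 (-0.52, adjusted p = 0.0255) and C1qc (-0.36, adjusted p = 0.0717) remained called, and Trem2 (-0.45, adjusted p = 0.173) and Csf1r (adjusted p = 0.277) were not. In that fit 403 of all genes were called. Of 8 oligodendrocyte markers, 2 were called higher (the myelin proteins Mobp and Mbp, the latter lost without any of 13 mice) and 0 lower, with a median log2 fold change of 0.20. With both scores as covariates Aif1 remained called (-0.54, adjusted p = 0.0357), and C1qc (-0.36, adjusted p = 0.111) and Trem2 (-0.50, adjusted p = 0.145) were not. The 8 endothelial and pericyte markers had 0 calls, with Flt1 at 55.0 ± 6.47 and 53.7 ± 7.96 CPM. The 9 striatal projection neuron markers also had 0 calls, but 2 had an unadjusted p under 0.05 in edgeR's test. Their median log2 fold change was -0.13, close to the -0.14 of the microglia genes. Of 8 astrocyte markers, 3 were higher (Aldh1l1, Fgfr3 and Gja1) and 2 lower, among them S100b, a calcium-binding protein, at 181 ± 35.8 and 106 ± 9.64 CPM.

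**Figure D4:**
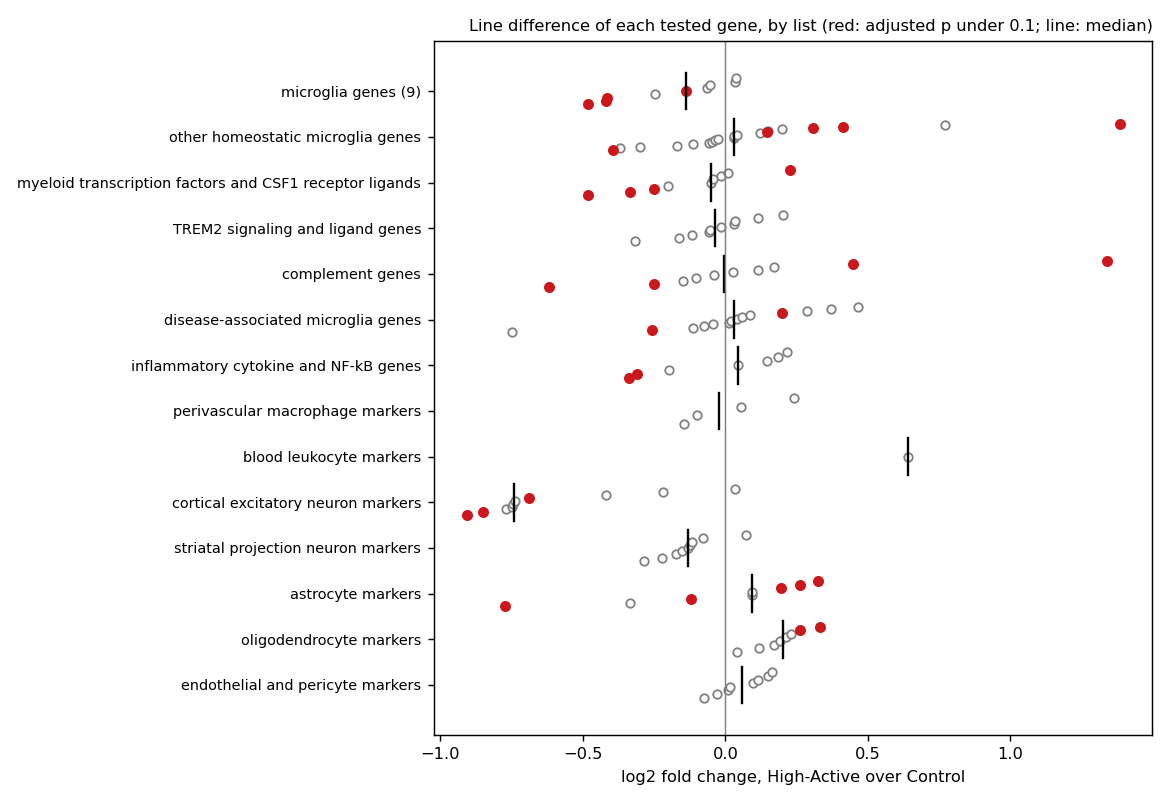
Log2 fold change in High-Active over Control mice of each tested gene in the 9 microglia genes and in 13 further lists (filled red, edgeR adjusted p under 0.1; open, not called; bar, median of the list). The microglia genes had a median of -0.14 with 4 lower and 0 higher, whereas the other homeostatic microglia genes had 4 higher and 1 lower.

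Other genes typical of resident microglia did not share one direction. Of 20 such genes, 4 were higher in the High-Active line, 1 was lower, and the median log2 fold change was 0.03. For this list and those that follow, 7.63% of all genes tested were called higher and 6.90% lower. Ctss, a lysosomal protease of microglia, was the one that fell, from 86.6 ± 11.6 to 66.0 ± 9.23 CPM (SD, n = 10; log2 fold change -0.40, SE 0.080, edgeR adjusted p = 0.00684). Itgam, the CD11b chain of the complement receptor CR3, rose from 12.98 ± 1.99 to 17.3 ± 2.27 CPM (0.41, SE 0.089, adjusted p = 0.00988). Rnase4, a secreted ribonuclease, rose by 0.31 (adjusted p = 0.0636) and Itgb5, an integrin chain, by 0.15 (adjusted p = 0.0933), the latter call being lost without any of 14 of the 20 mice. Fcrls, an Fc receptor-like gene of microglia, was also called (1.38, adjusted p = 0.0892) but ranged from 0.831 to 5.74 CPM in Control and from 1.58 to 20.6 CPM in High-Active mice, and its call was lost without any of 13 mice. The abundant Cst3, cystatin C, was at 821 ± 109 and 789 ± 77.4 CPM.

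Among 9 transcription factors of myeloid cells and ligands of their receptors, 1 was higher and 3 were lower. Runx1, a transcription factor of blood cell development, fell by 0.48 on the log2 scale (SE 0.146, edgeR adjusted p = 0.05003). Mef2c, which neurons also express, fell by 0.33 (adjusted p = 0.0780). Csf1, a ligand of the CSF1 receptor, rose from 16.0 ± 1.81 to 18.7 ± 2.47 CPM (0.23, adjusted p = 0.0791), and this call was lost without any of 13 of the 20 mice. Spi1, which encodes PU.1, was at 0.01 (adjusted p = 0.962), Il34 at -0.20 (adjusted p = 0.116), and Cx3cl1, which encodes fractalkine, at 684 ± 92.2 and 676 ± 96.1 CPM.

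The partners of TREM2 were not called over both treatments. Of 10 genes for its signaling and ligands, 0 rose and 0 fell in edgeR's test, with a median of -0.03, and 3 had an unadjusted p under 0.05. In saline mice 1 of the 10 was lower, the kinase gene Syk (log2 fold change -0.41, SE 0.101, edgeR adjusted p = 0.0470). Tyrobp, the adaptor through which TREM2 signals, had a log2 fold change of -0.05 (SE 0.098, edgeR adjusted p = 0.772). Apoe, a lipoprotein that TREM2 binds, was at 1063 ± 115 and 1049.5 ± 125 CPM, and Clu, another one, at 636 ± 65.0 and 650 ± 46.9 CPM (SD, n = 10).

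Among 15 complement genes other than C1q, 10 passed the CPM threshold, 2 were higher and 2 lower. C3ar1, the receptor for the C3a fragment, fell by 0.62 on the log2 scale (SE 0.183, edgeR adjusted p = 0.0463), from 1.62 ± 0.481 to 1.05 ± 0.282 CPM (SD, n = 10). Itgb2, the CD18 chain that pairs with CD11b, fell by 0.25 (adjusted p = 0.0570). Cd55, which limits complement on cell surfaces, rose by 0.45 (SE 0.117, adjusted p = 0.0272). C3, the central component, was called higher (1.34, adjusted p = 0.0969) and ranged from 0.477 to 4.35 CPM in Control and from 0.447 to 15.2 CPM in High-Active mice, with the call lost without any of 14 mice. C4b, cleaved after C1q is bound, was at 57.9 ± 15.9 and 54.2 ± 20.3 CPM.

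Disease-associated genes, which rise in activated microglia, were called about as often as all genes (14.5%). Inflammatory genes were called only as lower, in 2 of 7 tested, against 6.90% of all genes lower and 7.63% higher. Of 17 disease-associated microglia genes 14 were tested, 1 was higher (Cd63, 0.20, edgeR adjusted p = 0.0842, lost without any of 13 mice) and 1 lower (B2m, the light chain of class I MHC, -0.26, adjusted p = 0.0414). Cst7, Itgax and Clec7a, which mark that state, averaged 0.0304, 0.266 and 0.108 CPM and were not tested. Itgax averaged 0.399 ± 0.207 CPM in Control and 0.134 ± 0.0687 CPM in High-Active mice (SD, n = 10). Cst7 averaged 0.0224 and 0.0385 CPM in the 2 lines, and Clec7a 0.121 and 0.0959 CPM. Of 16 inflammatory genes 7 were tested, 0 were higher and 2 were lower: Il10ra, the interleukin-10 receptor, fell by 0.34 (SE 0.069, adjusted p = 0.00705), and Tnfaip3, an inhibitor of NF-kB, by 0.31 (SE 0.091, adjusted p = 0.0451). Of the inflammatory genes not tested, Il1b, Tnf and Il6 averaged 0.109, 0.0535 and 0.0397 CPM. Another averaged 0.726 ± 0.223 CPM in Control and 0.276 ± 0.146 CPM in High-Active mice (SD, n = 10). A further untested gene went the other way, at 0.106 ± 0.0462 and 0.174 ± 0.0757 CPM. Perivascular macrophage markers had 0 calls of 4 tested, with Mrc1 at 1.92 ± 0.405 and 2.03 ± 0.751 CPM (SD, n = 10). For blood leukocytes only Ly6c2 passed the CPM threshold of 10 markers, and it was not called (edgeR adjusted p = 0.643).

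Most genes around the called ones were not called, and among all genes tested 14.5% were called. Within 500 kb of C1qc, 10 other genes were tested, among them C1qa and C1qb, and 0 were called. Near Trem2 0 of 3 genes were called, and near Aif1, which lies in the MHC region, 2 of 36 were (Gtf2h4, higher, and H2-Q4, lower). Near Csf1r the one call of 14 genes was that of the overlapping Hmgxb3.

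After the 4 group means were removed, the correlations between the 9 genes ranged from -0.30 to 0.79. C1qb and C1qc had the highest correlation of log2 CPM (Pearson's r = 0.79 over 20 mice), followed by C1qa and C1qb (0.72) and C1qa and Csf1r (0.63). C1qc, Aif1 and Trem2, which shared a line difference, correlated little with each other within groups, with r of 0.13 for C1qc and Trem2, -0.24 for C1qc and Aif1 and -0.07 for Aif1 and Trem2. Among the 5 genes closest to the mean of the 9 genes were Fermt3 (r = 0.80), which encodes an adaptor of integrins in blood cells, Mxi1 (0.78), Def6 (0.77) and Zfp637 (0.74). All of these values share their libraries and their scaling, and they are given as a description.

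**Figure D5:**
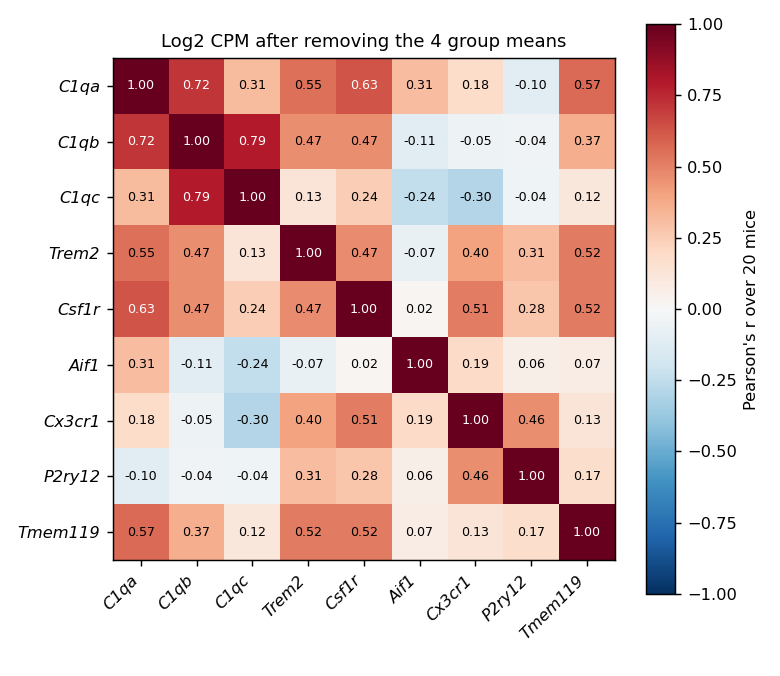
Pearson's r between the log2 CPM of pairs of microglia genes over 20 mice, after the mean of each of the 4 groups was removed. C1qb and C1qc reached 0.79, while Aif1 lay between -0.24 and 0.31 with the other genes.

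Home-cage distance, measured before the injection, was set beside the 9 genes within each line, since it separates the lines. The High-Active mice later given amphetamine averaged 1.47 km per day and those given saline 0.915, so the relations named are also given with the mean of each treatment removed, an alternative chosen after seeing the data. Of 18 relations, 3 had a permutation p under 0.05 for Pearson's r, and all 3 were negative. C1qa was lower in the more active High-Active mice (r = -0.63, permutation p = 0.0210; Spearman's rho = -0.84, permutation p = 0.003, n = 10), and without the 2 mice farthest from the median distance r was -0.75 (permutation p = 0.0323). With treatment means removed, r for C1qa was -0.53 (exact permutation p = 0.0525) and rho was -0.65 (p = 0.0416). For Tmem119 in High-Active mice r was -0.73 (permutation p = 0.00766) and rho was -0.62 (permutation p = 0.0594), and without those 2 mice r was -0.61 (permutation p = 0.1003). With treatment means removed, r for Tmem119 was -0.67 (exact permutation p = 0.0232) and rho was -0.73 (p = 0.0275). For P2ry12 in Control mice r was -0.65 (permutation p = 0.0157) and rho was -0.75 (permutation p = 0.0174), and r was -0.40 (permutation p = 0.319) without the 2 mice. With treatment means removed, r for P2ry12 was -0.72 (exact permutation p = 0.0324) and rho was -0.79 (p = 0.00743). For Csf1r in High-Active mice r was -0.28 (permutation p = 0.468) and rho was -0.62 (permutation p = 0.0615), and r was -0.78 (permutation p = 0.0202) without the 2 mice and -0.36 (exact permutation p = 0.134) with treatment means removed. These p values are not adjusted for the 18 relations, and full siblings are among the mice.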

How the data were processed

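Striatal RNA of 20 mice was sequenced by the authors on an Illumina HiSeq as paired-end reads from stranded libraries that were pooled over the lanes. Per the labels and methods, the authors aligned reads with TopHat2 (version 2.0.10) to GRCm38 and counted them per Ensembl gene with htseq-count (HTSeq 0.6.1). The files hold the deposited raw counts of each mouse, without normalization. Reads outside genes (8.17% to 9.55%), ambiguous (1.39% to 1.66%) and multiply mapped reads (5.70% to 7.01%) were left out. Symbols and positions came from GENCODE on GRCm38.

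Genes over 1 CPM in at least 3 mice (14792) were normalized by TMM and tested with edgeR 4.0.16 (quasi-likelihood test, one mean per group, R 4.3.3). Benjamini-Hochberg adjustment ran over all genes within each effect, with a threshold of 0.1. The line effect is High-Active minus Control averaged over treatments, the drug effect is averaged over lines, and the interaction is the difference between the responses. CPM uses TMM library sizes, and log2 CPM a prior count of 2. Permutation tests were two-sided, with 100000 regroupings for 10 against 10 mice and exact for 5 against 5. Those over mice treat each mouse as independent, although some are full siblings, so their p values may be too small. On data simulated for the line effect over 14792 genes, 92% of genes changed by 1 on the log2 scale and 77% of those changed by 0.5 were recovered. In these data 7 unchanged genes were called. The simulated mice were independent, with no full siblings and no varying cortical content, so recovery in the real data may differ.

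Alternatives were other scalings and filters, DESeq2 1.42.0, a robust likelihood-ratio test, limma-voom (limma 3.58.1) with and without a family block, marker scores as covariates, counts summed over full siblings, and leaving out each mouse. Drug differences within families, and relations with treatment means removed, were added after seeing the data. The 9 genes and the 13 further lists were chosen with earlier results of these data known. Named were all 9 genes and, in each list, up to 6 genes with the smallest adjusted p under 0.1, the 3 with the highest CPM, and the 5 genes most like the mean of the 9; other genes named (Spi1, Il34, Tyrobp, Syk, Hmgxb3, genes near a called gene, and those under the CPM threshold) were chosen after their values were seen. Some genes of the lists, which remain in their counts, are not reported here by name.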

Additional observations from a re-analysis of the deposited data

Results flagged for a closer look

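Within the groups of 5 mice, 4 of 36 gene and group combinations held a mouse that stood apart from the others in log2 CPM (gap over range above Dixon's critical value of 0.71), and chance flags about 1 in 20 groups. For Cx3cr1, mouse 197 was the lowest High-Active saline mouse, at a log2 CPM of 4.54 (23.2 CPM), while the other mice of that group were at 32.01 CPM or more. For C1qc, mouse 477 was the lowest Control saline mouse, at 4.85 (28.9 CPM), and it was still above every High-Active saline mouse. For Aif1, mouse 487 was the highest High-Active amphetamine mouse, at 2.55 (5.81 CPM), against at most 4.18 CPM in the other 4. For Trem2, mouse 883 was the highest Control saline mouse, at 3.88 (14.7 CPM), against at most 10.2 CPM in the other 4. Each was a different mouse. The line differences of C1qc, Aif1 and Trem2 passed the threshold without each of these mice.

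C1qa moved in opposite directions in the lines when full siblings given different injections were compared: amphetamine minus saline averaged -0.189 on the log2 scale over 4 High-Active families, all below 0, and 0.106 over 2 Control families, both above 0. The difference between these families was not tested, and their mice are among those of the comparison over all mice. In the comparison over all mice a permutation test of treatment within the lines gave p = 0.0922 for C1qa.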

How the results depend on the processing

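Of the 4 line calls, C1qc, Aif1 and Trem2 were called when each of the 20 mice was left out, and Csf1r in 5 of these fits. Leaving out 1 mouse gave 3 to 4 called microglia genes for the line effect, 1 to 2 in saline mice (1 without Control saline replicate 1, 2 or 5 or High-Active saline replicate 2, 3 or 4), and 0 to 1 in amphetamine mice (C1qc, without Control amphetamine replicate 1). The number called for the line effect was 2 with the cortical score, 1 with both marker scores and 2 with counts summed over full siblings, and in saline mice it was 1 with either set of scores; the cause was not tested. In amphetamine mice DESeq2 called 1 gene (C1qc). Over all genes the line effect gave 2149 calls, 403 with the cortical score, 363 with both scores, 609 with counts summed over full siblings, and 1381 to 2535 when 1 mouse was left out (1381 without High-Active amphetamine replicate 2, 1400 without Control saline replicate 5 and 1405 without High-Active saline replicate 4). The drug effect gave 391 calls with DESeq2, 458 with the likelihood-ratio test and 0 to 339 when 1 mouse was left out (339 without High-Active amphetamine replicate 2 and 128 without Control saline replicate 1), and the interaction 6 with the likelihood-ratio test and 0 to 1. These differ from 0, and the cause was not tested.

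Directions that turned were all of genes not called. P2ry12 was -0.0617 with both scores, and Tmem119 was -0.00342 with counts summed and -0.00797 as a mean with full siblings averaged. Cd59a was 0.0539 with the likelihood-ratio test, Cx3cl1 was 0.111, 0.182 and 0.0546 with the cortical score, both scores and summed counts, and Lpl was 0.0139 and 0.0497 with the scores. Mrc1 was -0.0343 in limma-voom with the family block, -0.0305 with no block, -0.0477 with the cortical score and -0.0348 with both. With 1 mouse left out the ranges were -0.0869 to 0.00757 for C1qa, -0.0535 to 0.0159 for Apoe, -0.125 to 0.0804 for Cd59a, -0.0502 to 0.0329 for Cx3cl1 and -0.0510 to 0.140 for Mrc1. The labels give no replicate numbers that groups share, so mice were not paired by replicate. Full siblings were used as a family block in limma-voom, which changed the line call of Csf1r alone among the 9 genes. They were also used for drug differences within families, for which no paired test was run. Of the list genes, Mbp lost its call without any of 13 mice, Mef2c without any of 8, and Itgb2 and Rnase4 without any of 3. At 133 to 322 reads per mouse, Aif1 had the fewest reads of the 9 genes.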
